A study of Medicago ruthenica with 9 samples.

Results

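The miR396 family was examined across 9 small RNA libraries from leaves of M. ruthenica, a drought-hardy forage legume. Its members were the names in the miRNA table whose family number is exactly that of miR396, which gave 10 of 595 names, and miRNAs predicted without a known family were never members. The seedlings were 4 weeks old when the treatments began and grew with 8 plants to a pot. Control plants (CK) were watered at 3-day intervals and kept above 80% relative soil moisture. Drought-stressed plants (DS) went without water for 15 days, by which time soil moisture was 20%. Rewatered plants (RW) had the same 15 days without water and were sampled 2 days after watering resumed. CK and DS leaves were collected on day 15, and no control of the later day is described. Comparisons with RW therefore cannot tell rewatering from 2 more days of age. Each group had 3 libraries, described in the labels as biological replicates, and the plants that went into each library are not stated.

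miR396 is an ancient plant miRNA family. In Arabidopsis its 5p strand guides cleavage of mRNAs for growth-regulating factors (GRFs), transcription factors that keep leaf cells dividing, and its level rises as leaves mature and division stops. In Medicago truncatula roots it also silences bHLH79-like transcription factors. The 3p strand comes from the opposite arm of the same hairpin precursor and is usually the strand that is discarded.

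The sequences show how closely the members resemble each other and at which bases they differ. Each is written 5′ to 3′ with bases 2 to 8, the seed, in capitals. The names come from the species of the matching miRBase entry (mtr, M. truncatula; lus, flax; csi, sweet orange; cme, melon; mes, cassava), with L, R and ss marking changed ends and substitutions relative to that entry. The 5 members that carry the seed TCCACAG are these:
mtr-miR396a-5p: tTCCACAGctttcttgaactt
mtr-miR396b-5p: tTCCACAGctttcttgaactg
lus-miR396b_R+1_1ss19CT: tTCCACAGctttcttgaatttt
csi-miR396a-5p_R+1_1ss21GA: tTCCACAGctttcttgaactat
cme-miR396a_R+1_1ss21TC: tTCCACAGctttcttgaactca

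No name outside the family carried TCCACAG. Positions counted from 1 at the 5′ end of mtr-miR396a-5p, mtr-miR396b-5p differed from it by T21G alone. The lus form carried C19T, the csi form T21A and the cme form T21C, and these 3 were 22 nt long against 21 nt for both mtr 5p forms. All differences within this group thus lay in the last bases of the 3′ end, outside the seed. No matching assembled transcript was listed for the lus form or csi-miR396a-5p_R+1_1ss21GA, unlike for the other members of this group.

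The 3p members, and the pair of names that stands apart, were as follows:
mtr-miR396a-3p_L-1: cTCAAGAAagctgtgggaga
mes-MIR396f-p3: tTCAAGAAagctgtgggaga
mtr-miR396b-3p: gTTCAATAaagctgtgggaag
csi-MIR396c-p3_2ss17TA18TC and csi-MIR396c-p5_2ss17TA18TC: tCTTTCTTtcttcttcacctt

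mes-MIR396f-p3 differed from mtr-miR396a-3p_L-1 only by C1T, counted from the 5′ end of the latter. The reverse complement of mtr-miR396a-3p_L-1 shares the 15-base run ccacagctttcttga with mtr-miR396a-5p, as the strands of 1 hairpin do. The csi-MIR396c names are a single sequence listed under both arms, so the 10 names hold 9 sequences. Its longest run in common with mtr-miR396a-5p was 7 bases and 95.2% of its bases were pyrimidines, so the sequence goes against the family name although the rule keeps it.

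The values are normalized counts, read counts that the authors multiplied by a factor for each library. mtr-miR396a-5p had the third highest mean of all 595 names over the 9 libraries and mtr-miR396b-5p ranked 5. The lus form ranked 40, mtr-miR396b-3p 79, mtr-miR396a-3p_L-1 84 and csi-miR396a-5p_R+1_1ss21GA 116. These 6 members were above 0 in all 9 libraries and passed the filter of at least 5 in at least 3 libraries. The other 4 did not, and they are described by their values only.

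The libraries differed in ways that touch these values. Their listed values summed to 1237467 to 1718279. Within a library, 98.7 to 100% of the values of up to 20 steps lay within 0.1 of a step of a whole multiple of that step. The step was 0.252 to 0.310 for control, 0.460 to 0.617 for rewatered and 0.788 to 0.893 for drought libraries, so the same normalized count stood on more steps in CK. Control libraries listed 423 to 489 names above 0, drought libraries 283 to 305 and rewatered libraries 347 to 376. Families that resemble rRNA or tRNA fragments took a share of the listed values of 0.482 to 0.609% under control, 1.080 to 2.28% under drought and 1.80 to 2.35% after rewatering. With those families left out and the rest rescaled, limma called 0 of the 6 members in each comparison. Among all 324 names tested that way, it called 11 (DS vs. CK), 6 (DS vs. RW) and 7 (RW vs. CK). With the families kept, it called 18, 8 and 18 of 339 names in the same order, and also 0 members. The count of 0 therefore cannot show whether those families affect the members.

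mtr-miR396a-5p, the main guide strand of the family, measured 89889, 97046 and 99349 normalized counts in CK, 66311, 69699.8 and 82292 in DS, and 82194, 62318 and 69501 in RW. All 3 CK libraries lay above all DS and all RW libraries, and DS and RW overlapped. The control mean was 95428 ± 4933, the drought mean 72768 ± 8421 and the rewatered mean 71337 ± 10064 (SD, n = 3). In DS vs. CK the log2 fold change was -0.40 with a 95% interval of -0.85 to 0.061, and the limma adjusted p was 0.297. In RW vs. CK it was -0.43 (-0.89 to 0.030), with a limma adjusted p of 0.350. Neither passed the threshold of 0.05. DS and RW differed by 0.032 (-0.43 to 0.49).

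lus-miR396b_R+1_1ss19CT, the 22-nt form with the changed 3′ end, showed another order of the groups. It measured 715, 680.0 and 678 normalized counts in CK, 887, 1266 and 1110.3 in DS, and 658, 651 and 685 in RW. Every DS library lay above every CK and every RW library, and CK and RW spread over a coefficient of variation of 3.01% and 2.74%. The control mean was 691 ± 20.8, the drought mean 1088 ± 191 and the rewatered mean 665 ± 18.2 (SD, n = 3). The log2 fold change was 0.64 in DS vs. CK (0.13 to 1.15), a 1.56-fold difference, with a limma p of 0.0187 before adjustment and an adjusted p of 0.167. In DS vs. RW it was 0.69 (0.18 to 1.21), 1.62-fold, with a limma p of 0.0122 and an adjusted p of 0.214. RW vs. CK gave -0.055 (-0.57 to 0.46). No adjusted value passed. The joint test of the 3 groups gave a limma p of 0.0217 and an adjusted p of 0.160.

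mtr-miR396b-5p, the second guide strand, was the most variable of the abundant members. It measured 19505, 40443 and 23510.4 normalized counts in CK, 24628, 38968 and 52767 in DS, and 25025, 43216 and 23940.4 in RW. The groups overlapped in every comparison, and 1 library of CK and 1 of RW stood well above the other two of its group. The coefficient of variation was 40.0% for CK, 36.3% for DS and 35.2% for RW, against 5.17%, 11.6% and 14.1% for mtr-miR396a-5p. In DS vs. CK the log2 fold change was 0.48 with an interval of -0.33 to 1.29 (limma adjusted p = 0.482). Across the 9 libraries the log2 values of the 2 mtr 5p members had a Pearson r of -0.19 and a Spearman rho of -0.27, a description over libraries that share treatments.

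The 3p strands were far lower. mtr-miR396a-3p_L-1 measured 135, 131 and 162 normalized counts in CK, 109, 109.5 and 82.1 in DS, and 105, 104 and 188 in RW. All DS libraries lay below all CK libraries, while RW, with 1 high library, overlapped both. The log2 fold change in DS vs. CK was -0.51 (-1.26 to 0.24), with a limma adjusted p of 0.433. The DS values stood on only 92 to 138 steps.

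mtr-miR396b-3p, the opposite strand of mtr-miR396b-5p, measured 94.96, 163.6 and 134 normalized counts in CK, 200.2, 163 and 98.2 in DS, and 103, 130.0 and 146 in RW. csi-miR396a-5p_R+1_1ss21GA, the other 22-nt form seen in every library, measured 49.8, 40.6 and 69.9 in CK, 49.7, 88.5 and 58.0 in DS, and 42.8, 32.0 and 79.0 in RW. Both overlapped between all groups. In DS vs. CK their log2 fold changes were 0.21 (-0.61 to 1.02) and 0.28 (-0.71 to 1.27), with limma adjusted p-values of 0.774 and 0.738. Both intervals reach past 1 on the log2 scale, so neither a change of that size nor its absence can be read from them.

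**Figure D1:**
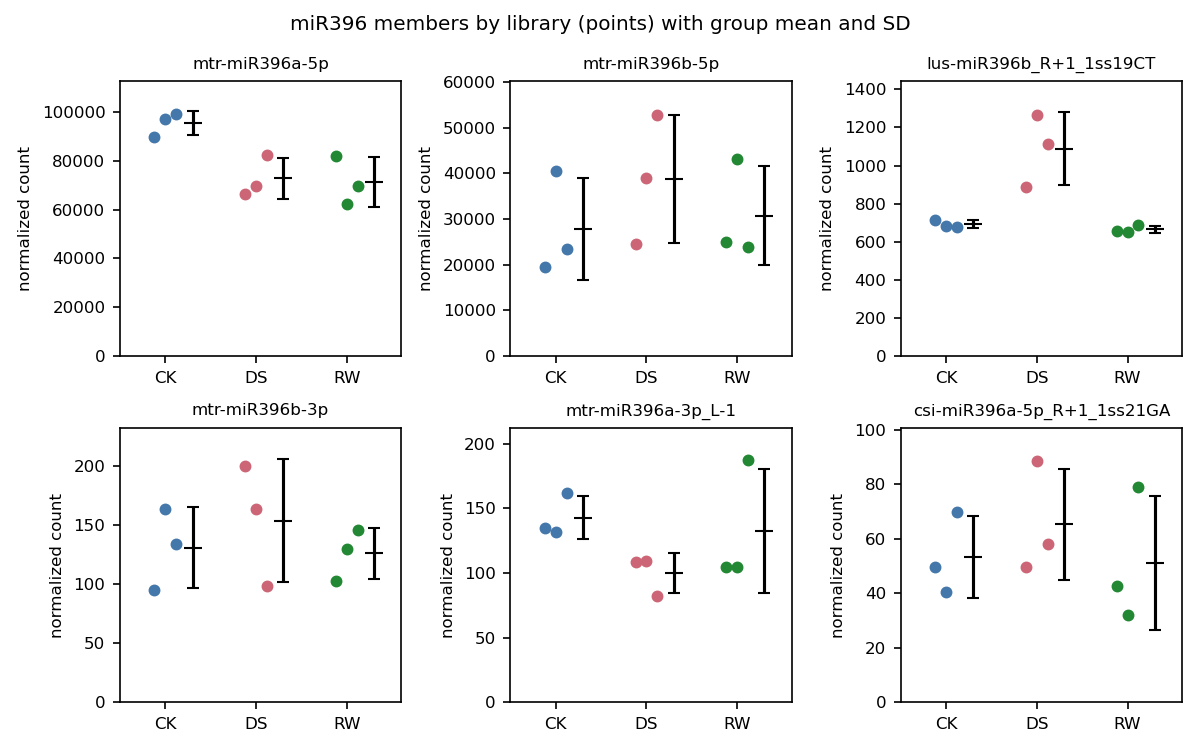
Normalized count (vertical axes, starting at 0) of the 6 tested miR396 members in each library of CK, DS and RW. Points are libraries, and the bars beside them show the group mean and SD (n = 3). The lowest CK library of mtr-miR396a-5p, at 89889, lies above all DS and RW libraries, and the lowest DS library of lus-miR396b_R+1_1ss19CT, at 887, lies above all CK and RW libraries.

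Of the 4 members that were not tested, cme-miR396a_R+1_1ss21TC was listed at 8.87 and 3.52 normalized counts in 2 CK libraries and at 0 in the other 7 libraries. mes-MIR396f-p3 was listed at 2.52 in 1 CK library and at 0 elsewhere. The csi-MIR396c sequence was listed at 1.26 in 1 CK library, 4.21 in 1 DS library and 5.06 and 2.66 in 2 RW libraries. The smallest value above 0 was 3.94 to 4.21 in the DS libraries and 0.652 to 1.55 in CK. A level of 2.52 could therefore be listed in CK and not in DS. The 8.87 of the cme form lay above those smallest values, but the other CK libraries had 3.52 and 0. These names support no comparison.

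Read over the family, limma called 0 of the 6 tested members in DS vs. CK, where it called 5.31% of all 339 tested names. It called 0 in DS vs. RW, against 2.36% of all names, and 0 in RW vs. CK, against 5.31%. The joint test also called 0 members (7.08% of all names). These counts of 0 held under every alternative run with limma except upper-quartile scaling over the values above 0 of each library. Some of the alternatives with 0 members called no name at all in a comparison, so 0 members was fixed there. The upper-quartile scaling over values above 0 called 5 members lower in DS vs. CK, among 175 names of 362 tested. It also called 1 lower in RW vs. CK, among 51 names, and 3 in the joint test, among 138. Before adjustment, at a limma p under 0.05, 1 member was called in DS vs. CK, beside 19.5% of all names. DS vs. RW gave 1 (14.2%), RW vs. CK gave 0 (15.6%) and the joint test gave 1 (18.9%), and each call was the lus form. The test in the study's methods, a comparison of 2 groups on normalized counts with no adjustment, called 2 members in DS vs. CK, beside 6.78% of all tested names. DS vs. RW gave 0 (5.9%), while RW vs. CK gave 1 (9.44%). Those calls were mtr-miR396a-5p in both comparisons with CK and mtr-miR396a-3p_L-1 in DS vs. CK, each with the lower value in the treated group. The study's own list of miRNAs that differed among its 3 groups, at p under 0.05 with no adjustment described, holds the lus form and mtr-miR396a-5p. The limma joint test of the 3 groups gave mtr-miR396a-5p a p of 0.116 and an adjusted p of 0.342.

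Groups did not overlap for 3 of 6 members in DS vs. CK, against 28.0% of all tested names, with 2 lower in DS (18.3%) and 1 higher (9.73%). In DS vs. RW this held for 1 member (15.3% of all names), with 1 higher in DS (6.19%) and 0 lower (9.14%). In RW vs. CK it held for 1 member (21.2%), with 0 higher in RW (10.3%) and 1 lower (10.9%). The median log2 fold change of the 6 members was 0.24 in DS vs. CK, beside -0.36 over all tested names. The same pair of medians was 0.28 and -0.16 for DS vs. RW, and it was -0.09 and -0.11 for RW vs. CK. All 6 members were above 0 in every library, as were 186 of the 339 tested names, so the paired medians cover names of unlike detection.

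**Figure D2:**
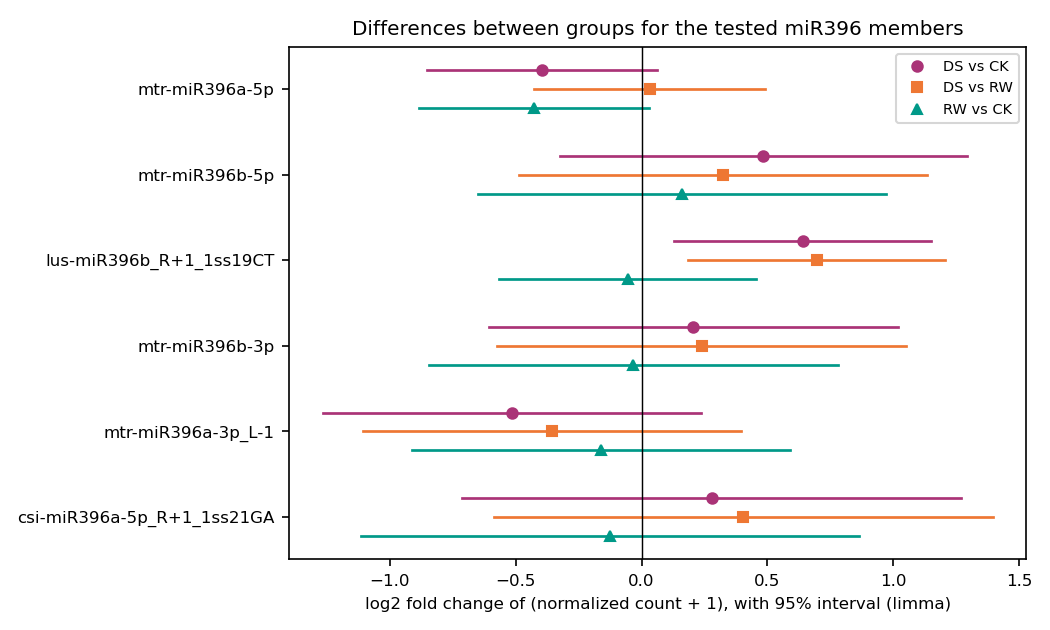
log2 fold change of (normalized count + 1) with its 95% interval from limma for each tested member in the 3 comparisons of groups. Only the intervals of lus-miR396b_R+1_1ss19CT in the 2 comparisons that involve DS lie wholly on 1 side of 0, and no adjusted p passed 0.05.

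**Figure D3:**
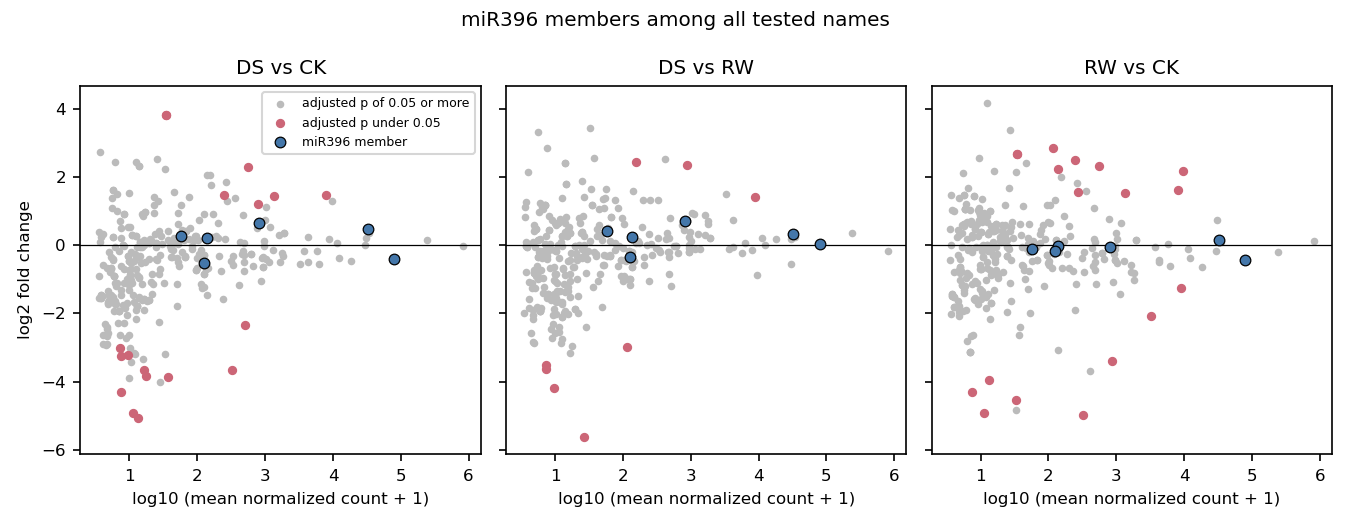
log2 fold change (vertical axis) against log10 of the mean normalized count + 1 (horizontal axis) for all 339 tested names in each comparison. Red points passed a limma adjusted p of 0.05, and the 6 miR396 members, in blue, are not among them.

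The family as a whole was dominated by its 2 mtr 5p members. The summed normalized count of the 10 names averaged 124271 ± 14057 for control, 112966 ± 22231 for drought and 103044 ± 7414 for rewatered libraries (SD, n = 3). That was 9.07 ± 1.96%, 8.09 ± 1.37% and 7.35 ± 1.07% of the listed values. All CK sums lay above all RW sums and DS overlapped both, while the shares of the listed values overlapped between all groups. Names of the 5p arm held 99.6 to 99.9% of the family sum in every library. mtr-miR396a-5p made up 77.2 ± 6.23% of the family under control, 65.1 ± 6.05% under drought and 69.4 ± 9.45% after rewatering, and mtr-miR396b-5p 21.9 ± 6.32%, 33.6 ± 6.17% and 29.7 ± 9.51%. Both shares overlapped between groups.

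**Figure D4:**
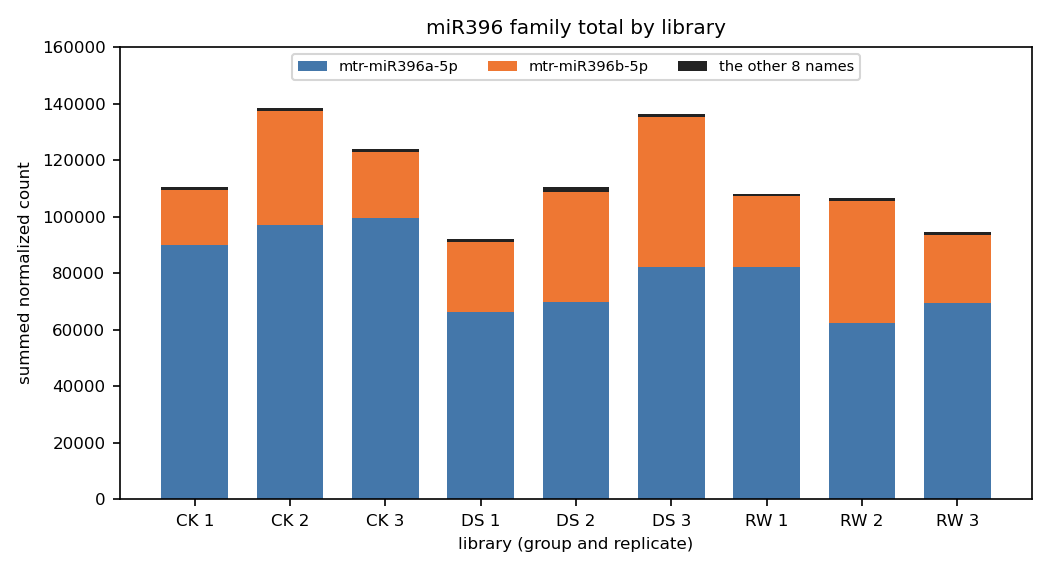
Summed normalized count of the miR396 names (vertical axis, starting at 0) in each library, split into mtr-miR396a-5p, mtr-miR396b-5p and the other 8 names. The total runs from 92185 to 138504, and the other 8 names form a thin band at the top of each bar.

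A ratio of 2 members within a library does not depend on the factor the library was multiplied by. The lus form amounted to 0.795, 0.701 and 0.682 per 100 of mtr-miR396a-5p in CK, 1.34, 1.82 and 1.35 in DS, and 0.800, 1.05 and 0.986 in RW. DS lay above RW and RW above CK, with no overlap between any 2 groups, although the lowest RW library and the highest CK library differed little. The separation in DS vs. CK follows from the values of the 2 members, the lus form being higher and mtr-miR396a-5p lower in every DS library. Both names are also in the study's own list from these data, so their ratio is no independent support. The log2 ratio differed by 1.04 in DS vs. CK, a 2.05-fold difference, by 0.66 in DS vs. RW and by 0.37 in RW vs. CK. Each gave p = 0.1 in a 2-sided exact permutation test, the smallest value that 3 against 3 libraries allow, and 0.4 after adjustment over the 12 ratio comparisons made.

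mtr-miR396b-5p amounted to 29.0 ± 11.01 per 100 of mtr-miR396a-5p for CK, 52.4 ± 13.8 for DS and 44.7 ± 21.4 for RW (SD, n = 3), and the groups overlapped. The ratio of mtr-miR396a-5p to its 3p strand spanned 613 to 738 for CK, 609.5 to 1002 for DS and 371 to 783 for RW. That of mtr-miR396b-5p to mtr-miR396b-3p spanned 175.01 to 247, 123 to 537 and 164.4 to 332. Neither strand ratio separated the groups.

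**Figure D5:**
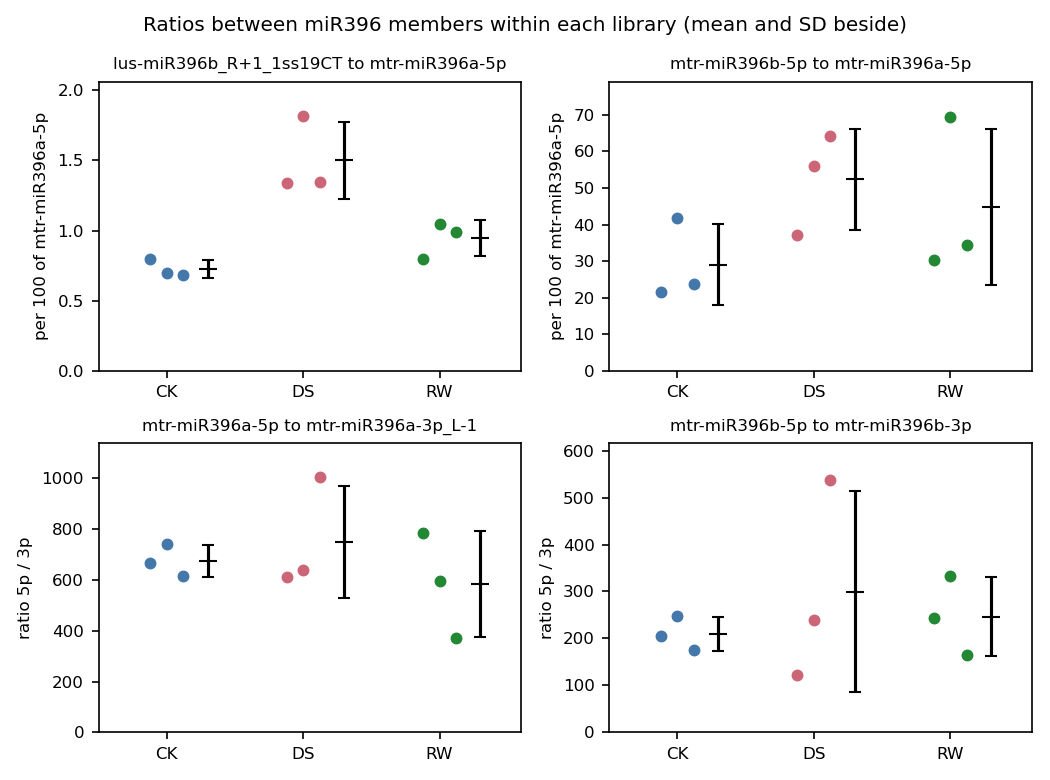
Ratios between miR396 members in each library of CK, DS and RW (points), with the group mean and SD beside them (n = 3). The upper panels give the lus form and mtr-miR396b-5p per 100 of mtr-miR396a-5p, and the lower panels give 5p over 3p. Only in the first panel are the groups apart.

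Levels of 2 members are compared here with 1 limit. mtr-miR396a-5p, mtr-miR396a-3p_L-1 and mtr-miR396b-3p were an even number of steps in all 9 libraries, while mtr-miR396b-5p, the lus form and csi-miR396a-5p_R+1_1ss21GA were odd in some. Of the 313 names above 0 in at least 6 libraries, 136 (43.5%) were even in every library that listed them, beside 3 of the 6 members. A value counted as whole here when it lay within 0.05 of a step. Even throughout were 60.5% of those names with 0 transcripts listed, 48.4% with 1 and 2.22% with 2 or more. mtr-miR396b-5p was listed with 2 transcripts, among them the one listed for mtr-miR396a-5p and mtr-miR396a-3p_L-1. The sources used here do not say how the authors divided reads among names. A ratio of levels may therefore carry an unknown factor. It cancels between groups only if reads were divided in the same way in every library, which was not tested.

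Among the names most like mtr-miR396a-5p over the 9 libraries, by Pearson r of the log2 values among 333 names, were lja-miR1511-3p_R-3 (r = 0.87), mdm-miR167h_R+1_1ss22AT (0.84), lja-miR167a_R+1 (0.84) and PC-3p-78936_58 (0.84). The miR167 family silences auxin response factors. lja-miR167a_R+1 averaged 5178 ± 617 normalized counts under control, 3712 ± 749 under drought and 3878 ± 1006 after rewatering (SD, n = 3). PC-3p-78936_58 averaged 19.6 ± 8.02 under control and was at 0 in every DS and RW library. Its r thus reflects CK libraries against libraries at 0.

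The names most like the lus form were gma-miR159a-3p_1ss21AT (r = 0.89), mtr-MIR156e-p3 (0.84), mtr-miR156c-3p (0.82), and ath-miR159c_L+1R-1_1ss2TA and cme-miR159b_L+1R-1 (0.71 each), which hold the same values. gma-miR159a-3p_1ss21AT, of a family that silences MYB transcription factors, averaged 672 ± 133 normalized counts under control, 943 ± 73.3 under drought and 629 ± 54.0 after rewatering (SD, n = 3). mtr-MIR156e-p3, from the hairpin of a miRNA that silences SPL transcription factors, measured 88.9 ± 19.6, 316 ± 130.1 and 62.2 ± 35.4. The names given as like mtr-miR396a-5p were thus highest in CK and those like the lus form highest in DS, which follows from how they were chosen.

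miR396 acts beside other miRNA families that silence transcription factors of leaf growth, among them miR319, whose TCP targets raise miR396 in Arabidopsis. The 3 tested miR319 names included 0 that passed in any comparison. The shares of all tested names that passed were 5.31% (DS vs. CK), 2.36% (DS vs. RW) and 5.31% (RW vs. CK). At such shares, 0 of 3 names cannot show whether miR319 differs from the other names. mtr-miR319a-3p averaged 1063 ± 274 normalized counts under control, 862 ± 327 under drought and 877 ± 75.4 after rewatering (SD, n = 3). Its log2 fold change in DS vs. CK was -0.34 (-1.04 to 0.35). gma-miR319d averaged 169 ± 34.8, 111 ± 45.9 and 151 ± 55.3 normalized counts in the same order, with -0.66 (-1.54 to 0.21) in DS vs. CK. pvu-miR319c_L-1R+1_1ss14AT, at 68.7 ± 48.4, 70.6 ± 4.02 and 139 ± 47.7, had its highest mean after rewatering. Its log2 fold change was 0.27 (-0.82 to 1.35) in DS vs. CK and 1.18 (0.098 to 2.27) in RW vs. CK, the latter with a limma adjusted p of 0.280. Of 75 tested names in leaf growth families (miR156, miR157, miR159, miR160, miR164, miR166, miR167, miR171, miR172, miR319, miR390 and miR393), 0 passed in DS vs. CK, against 5.31% of all tested names, and their median log2 fold change was -0.32 beside -0.36 over all. In DS vs. RW 1 rose and 1 fell, near the 2.36% of all names, with a median of -0.08 beside -0.16. RW vs. CK had 2 that rose, against 5.31% of all names in either direction, with a median of -0.25 beside -0.11.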

How the data were processed

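Small RNA was sequenced from 9 leaf libraries, 3 each of CK, DS and RW. The authors removed adapters, low-complexity reads, common RNA families and repeats with ACGT101-miR, and matched the sequences by BLAST to miRBase precursors and to assembled transcripts. The deposited table holds a signal. The authors scaled each library's read counts by a single factor, whose choice the sources used here do not give. No values of other samples were in the table (0 columns). The table has 667 lines and 595 names, and repeated lines of a name entered once.

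The 339 names that reached 5 or more in 3 or more libraries entered 1 limma fit (limma 3.58.1, R 4.3.3) of all 9 libraries, on log2 of the value plus a pseudocount of 1 and with the trend option. Each comparison had its own Benjamini-Hochberg adjustment and a threshold of 0.05. Fold changes on this scale understate the changes of low names. A count test was planned for whole read counts. The values passed as signal and not as recovered reads, so the edgeR and DESeq2 alternatives were not run. Ratios were tested by 2-sided exact permutation. Read counts behind the single values were not recovered, so no counting intervals are given. The study reports fewer reads for DS than for CK or RW. Tables and figures used Python 3.11.15, pandas 2.3.3, scipy 1.17.1 and matplotlib 3.10.9, and the fit was tested on simulated data.

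The members and lists were chosen with earlier results of these data known. The names given with values are the members, the miR319 family, and the 5 names most like each of mtr-miR396a-5p and the lus form, except 1 of these that is not reported here. A 5p or 3p arm was taken from the name, or from a shared run of at least 15 bases. Alternatives were other scalings, pseudocounts, filters, a replicate block, merged sequences, separate fits per pair of groups, a common lowest value, each library left out, and the test of the methods with unequal variances. The alternative with only names above 0 in all libraries was added after seeing the data. The upper quartile was first taken over the values above 0 of each library, and the form over all names was chosen after that result was seen.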

Additional observations from a re-analysis of the deposited data

How the results depend on the processing

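limma called 0 of 6 members in every comparison under each alternative but 1, although some alternatives called 0 of all names in a comparison. That exception was upper-quartile scaling over the values above 0 of each library, which called 5 members in DS vs. CK (175 of 362 names), 1 in RW vs. CK (51 names) and 3 in the joint test (138 names). This form of upper-quartile scaling was run first. The form over all names, which called 0, was taken in its place after that result had been seen, and both are given here. The factors of the first form were 0.481 to 0.661 for CK, 1.40 to 2.02 for DS and 1.001 to 1.09 for RW, in the reverse order of the number of names listed above 0, and most names moved with them. The median log2 fold change of all tested names shifted by -1.38 in DS vs. CK, by -0.60 for DS vs. RW and by -0.81 for RW vs. CK. The members called lower in DS vs. CK were mtr-miR396a-5p (-1.84, limma adjusted p = 0.000835), mtr-miR396a-3p_L-1 (-1.95), mtr-miR396b-5p (-0.97), mtr-miR396b-3p (-1.23) and the lus form (-0.81), and mtr-miR396a-5p was also lower in RW vs. CK (-1.23, limma adjusted p = 0.00834). The last 3 of those 5 reversed their direction, as did csi-miR396a-5p_R+1_1ss21GA in DS vs. CK (-1.14) and DS vs. RW (-0.23), mtr-miR396b-5p in DS vs. RW (-0.32) and RW vs. CK (-0.64), mtr-miR396b-3p in DS vs. RW (-0.40) and mtr-miR396a-5p in DS vs. RW (-0.61).

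The test of the methods, unadjusted, called 2 members in DS vs. CK, and for RW vs. CK it called 1. Median-of-ratios and TMM scaling turned mtr-miR396a-5p in DS vs. RW to -0.011 and -0.076, mtr-miR396b-3p in RW vs. CK to 0.062 and 0.068 (0.0041 under upper-quartile scaling over all names) and the lus form in RW vs. CK to 0.039 and 0.045. TMM moved the median of all names by 0.11 in RW vs. CK. With each library left out in turn, some limma fits called no name at all. Without CK replicate 1, 0 of 326 names were called in DS vs. CK. Without RW replicate 1 and 2, 0 of 322 and 0 of 325 were called in DS vs. RW. A count of 0 members was fixed there and says nothing about the members. All the other fits with 1 library left out also called 0 members. The values that changed direction ran from -0.061 to 0.14 for mtr-miR396a-5p in DS vs. RW, -0.11 to 0.47 for mtr-miR396b-5p in RW vs. CK, -0.013 to 0.50 and -0.24 to 0.14 for mtr-miR396b-3p (DS vs. CK first, then RW vs. CK), and -0.48 to 0.16 for csi-miR396a-5p_R+1_1ss21GA in RW vs. CK. The log2 ratio of mtr-miR396a-5p to its 3p strand ran from -0.11 to 0.25 in DS vs. CK and -0.51 to 0.025 in RW vs. CK, and that of mtr-miR396b-5p to mtr-miR396b-3p from -0.27 to 0.79 in DS vs. CK, from -0.46 to 0.60 against RW and from -0.052 to 0.45 in RW vs. CK. The ratio of the lus form to mtr-miR396a-5p kept its direction, at 0.89 to 1.11 in DS vs. CK, 0.52 to 0.74 against RW and 0.29 to 0.49 for RW vs. CK. Without mtr-miR166a in the total, the family held 20.8% for CK, 18.3% for DS and 18.9% for RW. The cause of these changes was not tested.

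Libraries with the same number did not deviate together (correlations of -0.15 to 0.058, median 0.018, against a median of 0.057 for other numbers). With 3 libraries in each group, this cannot show whether libraries of the same number were handled together. With the replicate block limma called 0 members in each comparison, and 17, 7 and 18 names in all.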
